A study of Mus musculus with 6 samples.

Results

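The genes described are 50 members of the Wnt pathway, taken from a fixed list of symbols: 16 Wnt ligands, 10 Frizzled receptors, 11 secreted inhibitors, 4 R-spondins, 8 feedback and target genes, and Ctnnb1, which encodes the effector β-catenin. All 50 were found among the 20880 genes that could be named on the array, and 43 were measured, meaning that a probe was well above background on every array of at least 1 group. The study measured messenger RNA on 1-colour Agilent arrays, 1 per mouse, in untreated skin of males. The skin is labelled as telogen, when hair follicles rest. The wild-type (WT) mice were 20, 19 and 18 weeks old in replicates 1, 2 and 3. The other group, with Sox4 conditionally knocked out in skin (KO), was 17, 18 and 16 weeks old. All 6 mice had a mixed C57Bl6/129Sv background. The sources used here do not give the deleting Cre line or the deleted part of Sox4. Samples of a group differ in age and so came from separate mice.

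Wnt ligands are secreted lipid-modified proteins that bind Frizzled receptors with the co-receptors Lrp5 and Lrp6. In the canonical branch this stabilises β-catenin, which enters the nucleus and drives target genes together with TCF and LEF factors, among them feedback inhibitors such as Axin2. In skin the pathway is known for starting hair follicle growth and for keeping stem cells of the follicle and epidermis, and secreted inhibitors hold it low in resting follicles. Sox4 encodes a SoxC transcription factor, and Sox proteins are known to modulate TCF and LEF activity in several tissues.

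The promoters of Sp5, Axin2 and Wnt11 are shown as examples of genes that varied between single arrays in the results that follow. They were not picked by a rule, and some other members varied more. Sp5 and Axin2 are direct targets of β-catenin in many tissues. Each line holds the 250 bases before a gene start in RefSeq on build GRCm38.p6, 5′ to 3′, at chr2:70474673-70474922 for Sp5, chr11:108920099-108920348 for Axin2 and chr7:98834862-98835111 for the upstream start of Wnt11, all on the plus strand. Capitals mark the TCF/LEF-type letters CTTTGAA or CTTTGAT and the Sox-type letters ACAAAG or ACAATG, searched on both strands.
Sp5: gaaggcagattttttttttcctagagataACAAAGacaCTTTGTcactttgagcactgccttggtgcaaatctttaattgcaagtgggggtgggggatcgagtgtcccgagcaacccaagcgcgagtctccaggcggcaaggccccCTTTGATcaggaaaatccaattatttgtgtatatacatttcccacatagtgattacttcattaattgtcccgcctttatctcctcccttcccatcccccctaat
Axin2: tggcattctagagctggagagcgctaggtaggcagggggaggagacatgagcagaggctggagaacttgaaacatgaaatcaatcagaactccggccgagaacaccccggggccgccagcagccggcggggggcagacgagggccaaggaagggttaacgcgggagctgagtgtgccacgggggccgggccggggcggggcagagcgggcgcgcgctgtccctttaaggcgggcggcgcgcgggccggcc
Wnt11: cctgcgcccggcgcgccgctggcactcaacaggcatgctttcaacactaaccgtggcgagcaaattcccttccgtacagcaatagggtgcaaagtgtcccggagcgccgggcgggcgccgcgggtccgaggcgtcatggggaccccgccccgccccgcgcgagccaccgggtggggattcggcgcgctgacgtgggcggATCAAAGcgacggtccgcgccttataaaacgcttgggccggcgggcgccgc
The Sp5 window held 1 TCF/LEF-type match, beginning 104 bases before the start, and 2 Sox-type matches at 221 and 212 bases, and no match of either kind shared bases with the other. Wnt11 had 1 TCF/LEF-type match on the minus strand, 51 bases before its upstream start, and none at its downstream start. The Axin2 window held neither motif, nor did those of Sfrp2 and Frzb, which varied more between arrays. RefSeq windows were at hand for 34 of the 50 genes. Of their 40 windows, 4 (10%) held a TCF/LEF-type match and 6 (15%) a Sox-type match, against 7.48% and 25.2% of 32851 windows of the same length. A match is only a run of letters, and its absence says only that these letters are not in this window.

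The arrays differed in more than genotype. Sox4 itself checked the labels: its level was 0.41, 0.65 and 0.75 across WT mice but −2.95, −2.88 and −3.05 across KO mice. It fell by 3.56 on the log2 scale, to a level 11.8-fold lower (SE 0.13, 3 mice in each group; adjusted p = 0.00135 by limma). Levels here and below are log2 signals relative to the array's 75th percentile, listed in the order of replicates 1, 2 and 3, and differences are KO minus WT. In the value table that the authors deposited, columns headed WT followed the KO scanner files of the same replicate number and the reverse. Over 30082 probes, taken relative to each probe's own level across arrays, the correlation was r = 0.887 to 0.931. It was −0.583 to −0.192 with the array of the heading. The groups of that table as headed are thus the reverse of those here, but no difference was computed from it. No spot was saturated, 52.1% to 66.4% of probes were well above background, and all 9 epidermal keratinocyte genes on the array, Krt5 and Krt14 among them, were measured, as skin requires. Replicates 1 and 2 of KO stood apart in hair shaft and inner root sheath genes, and both WT replicates 2 and 3 stood below the other arrays in skeletal muscle genes.

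**Figure D1:**
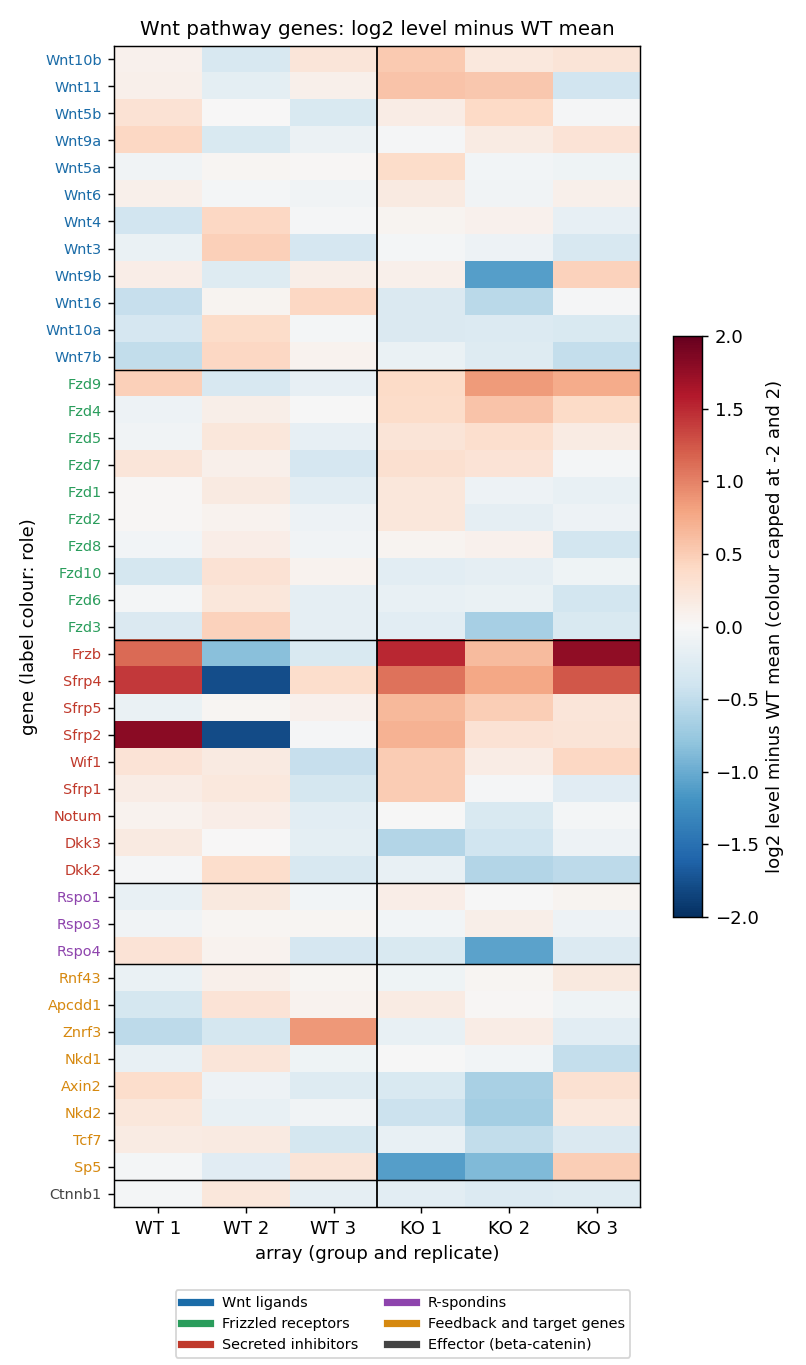
Level of the 43 measured Wnt pathway genes on each array (columns) minus the gene's WT mean, in log2 units, with colours capped at −2 and 2 and genes grouped by role and ordered by fold change. Most rows are pale in both groups, and stronger colours include Sfrp2 and Sfrp4 within WT, Sfrp4 and Frzb in KO, Sp5 in KO replicates 1 and 2, and Wnt9b and Rspo4 in KO replicate 2.

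No Wnt pathway gene passed the threshold in the comparison of KO with WT. Of 43 measured, 0 had a limma adjusted p under 0.05, where 0.0219% of 22823 genes and transcripts did (0.00438% higher and 0.0175% lower). Only 3 had an unadjusted p under 0.05, Fzd4, Fzd9 and Sfrp5, all higher in KO, a share of 6.98% against 11.7% of all (6.26% higher and 5.46% lower). Fold changes were above 0 for 19 and below 0 for 24 (55.8%, against 64.1% of all), with a median of −0.02 beside −0.08 over all genes and transcripts. For 3 genes the groups were free of overlap, the receptor Fzd4 and the inhibitor Sfrp5 being higher and Ctnnb1 lower in KO, or 6.98% against 19.3% of all (7.58% higher and 11.7% lower). The 95% interval of the fold change, which is not adjusted for the number of genes, lay within 2-fold in either direction for 36 of the 43 (83.7%, against 80.7% of all). The other 7 were Wnt9b, Fzd9, Frzb, Sfrp2, Sfrp4, Rspo4 and Sp5. A missed threshold with 3 arrays a group does not show that a gene was equal in both.

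**Figure D2:**
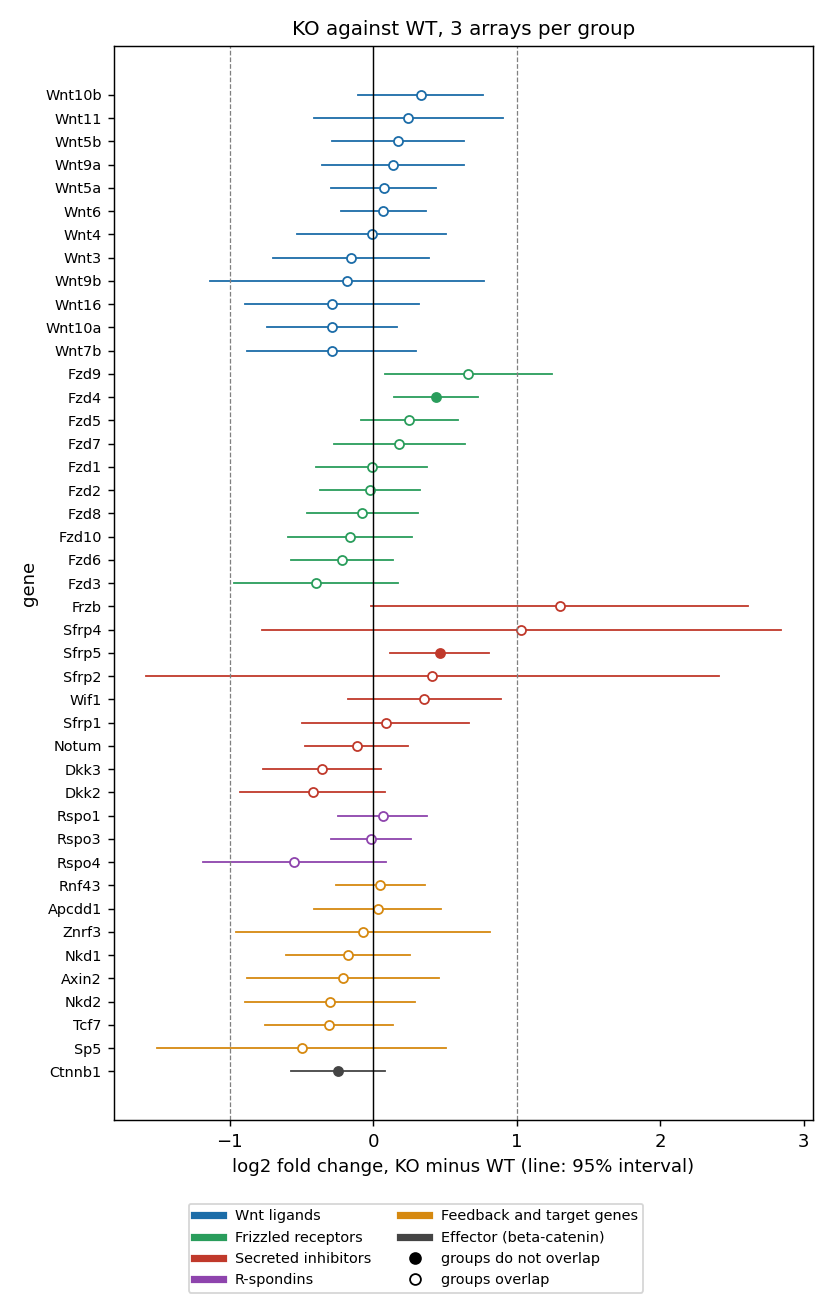
Log2 fold change, KO minus WT, of the 43 measured genes with its 95% interval, coloured by role; filled points mark the 3 genes whose groups do not overlap, and dashed lines mark 2-fold. Intervals are widest for Sfrp2, Sfrp4 and Frzb, and those of Fzd4, Fzd9 and Sfrp5 do not reach 0.

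No measured Wnt ligand passed the threshold. The 95% interval of the fold change lay within 2-fold for 11 of 12 (91.7%, against 80.7% of all), Wnt9b being the exception. Of 12 measured, 6 had fold changes above and 6 below 0, with a median of 0.03, a range from −0.29 to 0.33 and the smallest adjusted p at 0.51; none was free of overlap. Wnt10b, an activator of follicle growth, had levels of −2.49, −2.90 and −2.34 in WT, against −2.05, −2.37 and −2.33 in KO. KO replicate 2 lay inside the WT range and KO replicate 3 just above its top, so the groups overlapped, and the log2 fold change was 0.33 (SE 0.18, adjusted p = 0.51). Wnt10a, a ligand of skin, tooth and follicle, had 3.07, 3.78 and 3.37 in WT, against 3.12, 3.14 and 3.10 in KO. Its KO values were almost equal, with a range of 0.037, while WT spanned 0.71, and the difference was −0.29 (SE 0.19, adjusted p = 0.55).

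Wnt7b, an activating ligand of the follicle, stood at −1.01, −0.10 and −0.44 in WT, against −0.65, −0.78 and −0.99 in KO (difference −0.29, SE 0.25, adjusted p = 0.62). All its KO values lay inside the WT range. Wnt16, a ligand expressed in epidermis and follicle, stood at −2.25, −1.73 and −1.37 in WT, against −2.07, −2.32 and −1.81 in KO (difference −0.28, SE 0.25, adjusted p = 0.63). Its second probe differed by −0.31. Differences for the remaining ligands were 0.25 for Wnt11, 0.18 for Wnt5b, 0.14 for Wnt9a, 0.07 for Wnt5a and Wnt6, −0.01 for Wnt4, −0.15 for Wnt3 and −0.18 for Wnt9b, the last well above background on 2 of 3 KO arrays. Wnt5a and Wnt5b act mainly outside the β-catenin branch.

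The ligands Wnt2, Wnt2b, Wnt3a and Wnt7a, the inhibitors Dkk1 and Dkk4 and the agonist Rspo2 were not measured by this rule. Wnt2b, Dkk1 and Dkk4 were not well above background on any of the 6 arrays. Wnt3a and Wnt7a were so on 1 KO array each, Wnt2 on 1 array of each group, and Rspo2 on 2 arrays of each group. No fold is given for these 7 genes.

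Frizzled receptors, the membrane proteins that bind Wnts, were all measured, with 4 of 10 above and 6 below 0 and a median of −0.02. Fzd4, which also serves as the receptor for norrin in blood vessels, had levels of 2.90, 3.12 and 2.98 in WT, against 3.36, 3.56 and 3.38 in KO. Every KO value was above every WT value, and the groups stood 1.35-fold apart (log2 difference 0.44, SE 0.12, 95% interval 0.14 to 0.73), yet the limma adjusted p was 0.30. The 6 arrays lay on 3 slides. WT replicate 1 and KO replicate 3, which shared slide 1, differed by 0.49, and slide 2, with WT replicates 2 and 3 and KO replicate 1, gave 0.31. A fit with slide as a block gave 0.39. KO replicate 2, alone on slide 3, adds nothing to the difference in such a fit, here and below.

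Fzd9, a receptor known from muscle, bone and brain, had −0.59, −1.38 and −1.22 in WT, against −0.68, −0.21 and −0.31 in KO. KO replicate 1 lay just below WT replicate 1, so the groups overlapped, with a log2 difference of 0.66 (SE 0.24, adjusted p = 0.38). Slide 1 gave 0.28, slide 2 gave 0.62 and the slide block 0.47. Fzd5 had −2.98, −2.67 and −3.07 in WT, against −2.64, −2.58 and −2.75 in KO (difference 0.25, SE 0.14, adjusted p = 0.51), but its second, dimmer probe differed by −0.09. Fzd3, which also acts in planar cell polarity and hair patterning, had −0.86, −0.10 and −0.74 in WT, against −0.78, −1.23 and −0.87 in KO. WT replicate 2 alone was high, and the difference was −0.40 (SE 0.24, adjusted p = 0.53). Differences for the other receptors were 0.18 for Fzd7, −0.01 for Fzd1, −0.02 for Fzd2, −0.08 for Fzd8, −0.16 for Fzd10 and −0.22 for Fzd6. Second probes of Fzd2 and Fzd7 differed by 0.34 and −0.09, opposite in sign to the brighter ones.

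Among the secreted inhibitors, 6 of 9 measured had fold changes above 0 and 3 below (33.3%, against 64.1% of all), with a median of 0.36. Both members with a difference of at least 1 log2 unit were here (2 of 43 genes, where 4.41% of all passed that size). Sfrp5, a secreted Frizzled-like protein that captures Wnts, stood at 1.37, 1.55 and 1.59 in WT, against 2.15, 2.0 and 1.75 in KO. The groups did not overlap and stood 1.38-fold apart (log2 difference 0.46, SE 0.14, 95% interval 0.12 to 0.81, limma adjusted p = 0.33). Slide 1 gave 0.38, slide 2 gave 0.58 and the slide block 0.49.

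Frzb, also called Sfrp3 and known from cartilage and muscle, had −2.42, −4.39 and −3.86 in WT, against −2.05, −2.93 and −1.78 in KO, being well above background on 2 of 3 WT arrays. WT replicate 1 lay among the KO values, while WT replicates 2 and 3 were the lowest of all 6. The log2 difference was 1.30, or 2.46-fold (SE 0.55, 95% interval −0.013 to 2.61, adjusted p = 0.43). With normexp background correction it was 0.49, and with 1 array left out it ran from 0.88, without WT replicate 2, to 1.87, without WT replicate 1, so its size passed 1 log2 unit only under some settings. Slide 1 gave 0.63, slide 2 gave 2.07 and the slide block 1.46.

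Skeletal muscle genes were also lowest in WT replicates 2 and 3, though their order among the other arrays differed from that of Frzb and Fzd9. The median of 18 muscle genes relative to WT was 1.20, −0.33 and −0.79 in WT, against 1.79, 2.11 and 1.54 in KO, a shift of 0.33 on slide 1 and 2.41 on slide 2. All 18 of 18 were measured and above 0 in fold change, and none of them, Ckm and Acta1 included, was below background in either group. Their summed signal, in multiples of the 75th percentile, ran from 604.1 to 2422 in WT and from 2795 to 3580 in KO. For Frzb and Fzd9, which were nearest to KO in the same WT replicate 1, the part of muscle tissue in the difference was not tested, nor was it for Fzd4 and Sfrp5. In whole skin, more cells of a type and more RNA per cell cannot be told apart.

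Sfrp4 and Sfrp2, secreted Wnt-binding proteins of dermal fibroblasts, varied more between WT mice than between genotypes. Sfrp4 read 3.34, 0.15 and 2.28 in WT, against 3.01, 2.70 and 3.17 in KO. For Sfrp2 the WT levels were 3.93, 0.32 and 2.10, the KO levels 2.81, 2.40 and 2.38. In both genes WT replicate 2 was lowest and WT replicate 1 highest of the 6 arrays, and the KO arrays lay between them. The WT range was 3.19 for Sfrp4 and 3.60 for Sfrp2, where the median gene or transcript spanned 0.35 and the 99th percentile was 2.21. The KO ranges were 0.47 and 0.44. The genotype differences were 1.03 for Sfrp4 (SE 0.75, adjusted p = 0.58) and 0.41 for Sfrp2 (SE 0.83, adjusted p = 0.83), with opposite signs on the slides: −0.17 and 1.79 for Sfrp4, −1.55 and 1.60 for Sfrp2. Without WT replicate 2 the Sfrp4 difference was 0.15, and without WT replicate 1 it was 1.74. The median of 10 dermal fibroblast genes, all 10 measured, was 0.10, −0.07 and 0.02 over the same WT arrays. Their summed signal was 2655, 2376 and 2417 in WT, against 2026, 2326 and 2391 in KO. Within WT, median and sum were highest in replicate 1 and lowest in replicate 2, as Sfrp4 and Sfrp2 were, over a smaller range. The part of dermal fibroblasts in the Sfrp4 and Sfrp2 values was not tested.

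**Figure D3:**
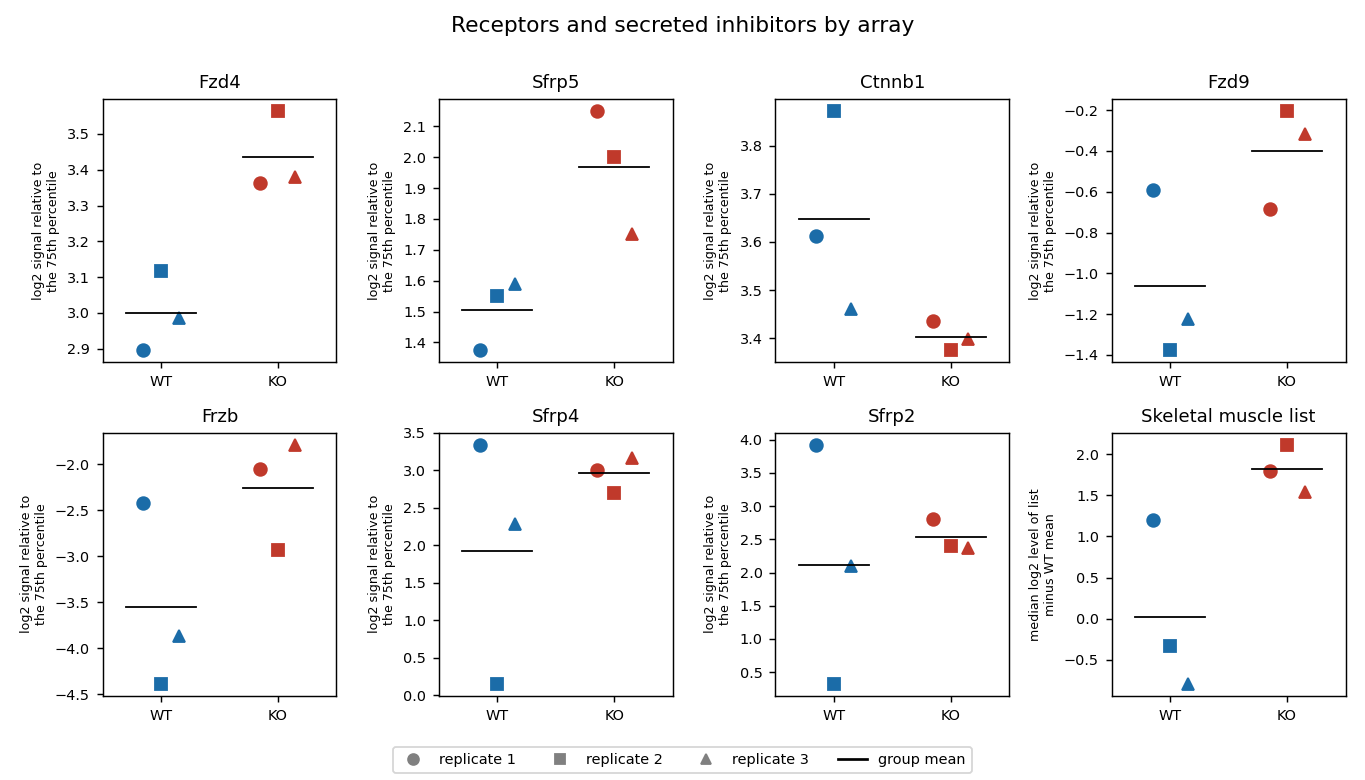
Level on each array (points, shape by replicate; bars are group means of n = 3) of β-catenin, receptors and secreted inhibitors, in log2 signal relative to the 75th percentile, and the median of the skeletal muscle list relative to its WT mean. Fzd4 and Sfrp5 are separated by genotype, Frzb and Fzd9 have WT replicate 1 near the KO points as the muscle list does, and Sfrp4 and Sfrp2 spread most within WT.

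The groups overlapped for each of the remaining inhibitors. Dkk3, a divergent Dickkopf protein, stood at 3.87, 3.71 and 3.51 in WT, against 3.11, 3.30 and 3.60 in KO (difference −0.36, SE 0.17, adjusted p = 0.47), with KO replicate 3 inside the WT range. Dkk2, which binds the Lrp co-receptors, stood at 0.04, 0.41 and −0.27 in WT, against −0.10, −0.53 and −0.46 in KO (difference −0.42, SE 0.21, adjusted p = 0.48), with KO replicate 1 inside the WT range. Wif1, which binds Wnts directly, differed by 0.36, Sfrp1 by 0.09 and Notum, the enzyme that strips the lipid from Wnts, by −0.12.

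R-spondins strengthen Wnt signals by removing the ubiquitin ligases Rnf43 and Znrf3 from the membrane through Lgr receptors. Rspo1 had 2.35, 2.67 and 2.44 in WT, against 2.62, 2.49 and 2.54 in KO, with all KO values inside the WT range (difference 0.06, SE 0.13, adjusted p = 0.83). Rspo3 had 0.12, 0.24 and 0.24 in WT, against 0.15, 0.31 and 0.10 in KO (difference −0.02, SE 0.11, adjusted p = 0.96), and the 95% interval ran from −0.29 to 0.26. Rspo4, best known from nail growth, had −2.58, −2.79 and −3.19 in WT, against −3.16, −3.92 and −3.13 in KO, where it was well above background on 2 of 3 arrays. Only KO replicate 2 lay outside the WT range, and the difference was −0.55 (SE 0.27, adjusted p = 0.47).

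Ctnnb1 had levels of 3.61, 3.87 and 3.46 in WT, against 3.43, 3.37 and 3.40 in KO. Every KO value was below every WT value, with WT replicate 3 and KO replicate 1 nearest to each other, and the difference was −0.25, or 1.19-fold lower (SE 0.14, 95% interval −0.58 to 0.083, limma adjusted p = 0.51). It was −0.21 on slide 1 and −0.23 on slide 2. The transcript says nothing of the stabilised protein, which carries the signal.

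Feedback and target genes report the output of the β-catenin branch. Of 8 measured, 6 had fold changes below 0 (75%, against 64.1% of all) and 2 above, with a median of −0.19 and the smallest adjusted p at 0.53. Axin2, a scaffold that speeds β-catenin breakdown, had 0.50, 0.03 and −0.11 in WT, against −0.16, −0.50 and 0.44 in KO. WT replicate 1 and KO replicate 3, which shared slide 1, were the highest, and the difference was −0.21 (SE 0.28, 95% interval −0.88 to 0.46, adjusted p = 0.73). Its second, dimmer probe, at −2.66, −2.73 and −2.73 in KO, did not set KO replicate 3 apart from the others and differed by −0.05.

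Sp5, a zinc-finger repressor with the motif-bearing promoter shown above, had −0.44, −0.63 and −0.14 in WT, against −1.50, −1.29 and 0.09 in KO. KO replicates 1 and 2 were the lowest of the 6 arrays and KO replicate 3 the highest, so the difference of −0.50 carried an SE of 0.42 (adjusted p = 0.62). Within slides it was 0.53 on slide 1 and −1.12 on slide 2. Nkd2, an antagonist that binds Dishevelled, had 4.13, 3.75 and 3.83 in WT, against 3.47, 3.22 and 4.11 in KO, again lowest in KO replicates 1 and 2 (difference −0.30, SE 0.25, adjusted p = 0.61). The second, dimmer Nkd2 probe did not show this split, at 0.42, 0.32 and 0.69 in WT, against 0.36, 0.37 and 0.54 in KO (difference −0.05). Without these 2 arrays KO replicate 3 stood above the WT mean in Sp5 (0.49), Nkd2 (0.20) and Axin2 (0.30), each opposite in sign to the difference over all arrays.

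The other targets did not show this split in their brightest probe. Nkd1, the relative of Nkd2, had 0.93, 1.32 and 1.0 in WT, against 1.08, 1.03 and 0.62 in KO (difference −0.18, SE 0.18, adjusted p = 0.67), lowest in KO replicate 3. Its second, dimmer probe had −2.71, −2.67 and −1.27 in WT, against −2.74, −2.78 and −2.61 in KO (difference −0.49). Tcf7, a DNA-binding partner of β-catenin, had −1.21, −1.18 and −1.71 in WT, against −1.51, −1.86 and −1.65 in KO (difference −0.31, SE 0.19, adjusted p = 0.53). T cells also express Tcf7. The 9 T and NK cell genes on the array were all measured and all below 0 in fold change, 8 of 9 (88.9%, against 19.3% of all) without overlap. Their median relative to WT was −0.17, −0.00077 and 0.17 in WT, against −1.22, −1.15 and −1.10 in KO. Their summed signal ran from 33.6 to 38.4 multiples of the 75th percentile in WT and from 28.7 to 31.1 in KO. Thy1 was the brightest of the 9 and is also in the dermal fibroblast list, so it weighs most in that sum. It stood at 4.63, 4.82 and 4.77 in WT, against 4.71, 4.73 and 4.58 in KO (difference −0.07). The part of T and NK cells in the Tcf7 values was not tested. Differences were 0.05 for Rnf43, 0.03 for the membrane inhibitor Apcdd1 and −0.07 for Znrf3, which was high in WT replicate 3 alone (−1.41, against −2.80 to −2.13 on the other 5 arrays).

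Hair shaft and inner root sheath genes marked the same KO arrays. The median of 12 measured genes of that list relative to WT was 6.02 and 5.17 in KO replicates 1 and 2 and −0.10 in KO replicate 3, and −0.12, 0.24 and −0.08 in WT. Their summed signal was 333.1, 220.6 and 7.26 multiples of the 75th percentile in KO and between 6.55 and 9.56 in WT; 3 further listed genes, Krt25, Krt33b and Krt34, were not measured. Lef1, the TCF/LEF factor of hair precursor cells, had −0.79 and −1.07 in KO replicates 1 and 2 and −2.34 in replicate 3, against −1.88, −2.11 and −2.53 in WT (difference 0.77, SE 0.42, adjusted p = 0.50). Wnt11 was highest in the same pair, at −0.31 and −0.34, against −1.26 in KO replicate 3 and −0.78, −1.08 and −0.78 in WT. Other marker lists set the same KO arrays apart by less. The median of 8 follicle stem cell genes was −0.35, −0.29 and 0.03 in KO, against 0.09, 0.18 and −0.13 in WT. Dermal papilla and dermal fibroblast medians were also lowest in KO replicates 1 and 2, and the melanocyte median was highest there. Keratinocyte, white adipocyte and endothelium medians did not follow this split. The part of the hair-bearing tissue or of these cell types in the values of Sp5, Nkd2, Axin2, Lef1 and Wnt11 was not tested. Whether KO replicates 1 and 2 were in telogen, as labelled, was not tested either.

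**Figure D4:**
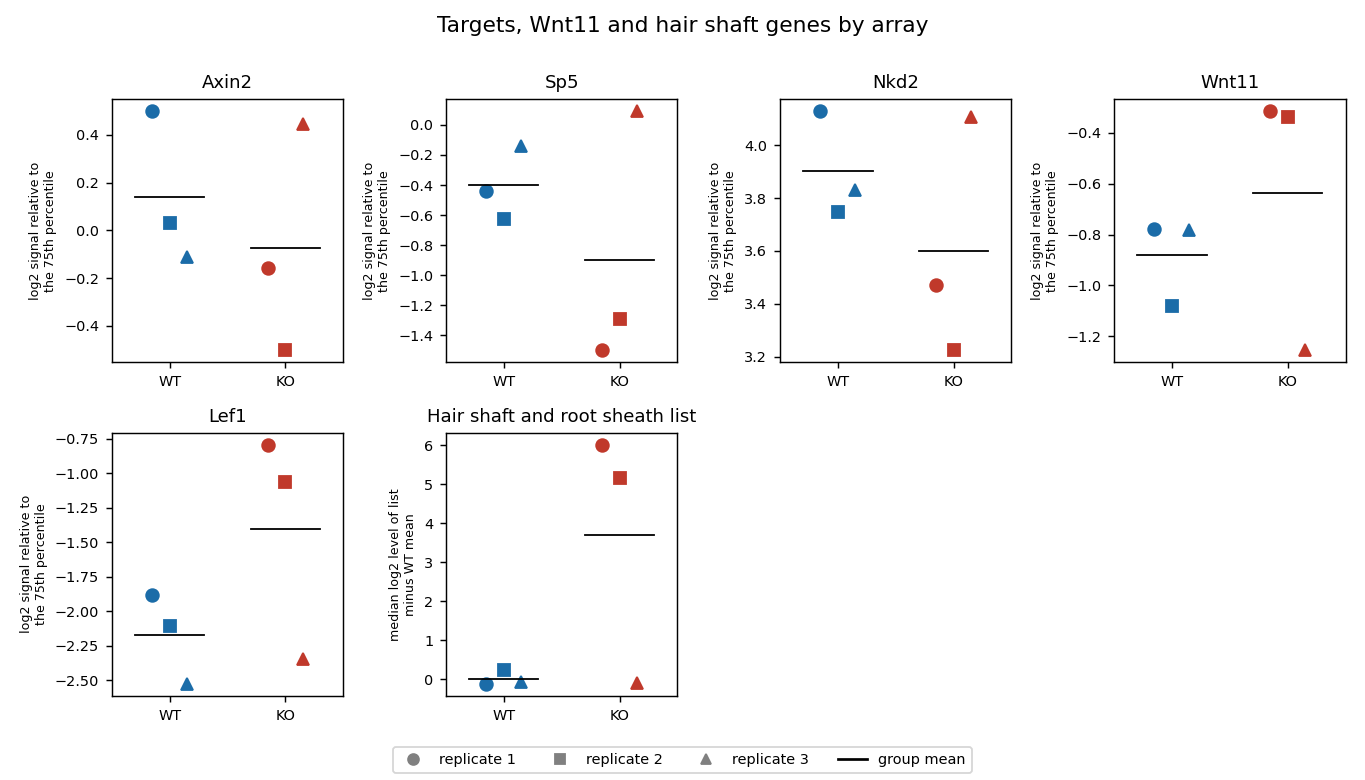
Level on each array (points, shape by replicate; bars are group means of n = 3) of Axin2, Sp5, Nkd2, Wnt11 and Lef1, in log2 signal relative to the 75th percentile, and the median of the hair shaft and inner root sheath list relative to its WT mean. KO replicates 1 and 2 lie apart from KO replicate 3 in every panel, below it for Axin2, Sp5 and Nkd2 and above it for Wnt11, Lef1 and the hair list.

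Beyond these members, 72 of 80 further pathway genes on the array were measured, and 0 had a limma adjusted p under 0.05. Only 2 (2.78%, against 11.7% of all) had an unadjusted limma p under 0.05. Fold changes were above 0 for 22 and below 0 for 50 (69.4%, against 64.1% of all), with a median of −0.09 beside −0.08 over all genes and transcripts. For 11 (15.3%, against 19.3% of all) there was no overlap, 2 being higher and 9 lower in KO. Of the co-receptors, Ptk7, a pseudokinase of planar polarity, was lower in every KO mouse (0.89, 1.15 and 1.13 in WT, 0.78, 0.24 and 0.71 in KO; difference −0.48, SE 0.18, adjusted p = 0.39), and Ror2, a receptor for Wnt5a, differed by −0.18. Lrp5, Lrp6, Lgr4 and Lgr5 differed by −0.09, −0.00043, 0.02 and −0.08. In the targets list the adhesion protein Nrcam was higher in every KO mouse (1.20, 1.15 and 1.32 in WT, 1.58, 1.86 and 1.53 in KO; difference 0.43, SE 0.13, adjusted p = 0.33). Ccn4, also known as Wisp1, was lower in every KO mouse (difference −0.29, SE 0.12, adjusted p = 0.43).

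Among cytoplasmic and nuclear components, the Dishevelled antagonist Dact2 differed by −0.59 (SE 0.29), the transducer Dvl1 by 0.26 (SE 0.16) and the co-repressor Tle3 by −0.23 (SE 0.11), with adjusted p of 0.47, 0.53 and 0.45. Dact2 was dim, being well above background on 2 of 3 KO arrays. Wls, which carries Wnts to the cell surface, and the ligand Wnt1 differed by −0.14 and −0.21, and the membrane inhibitor Tpbg and the Dickkopf-like Dkkl1 by −0.21 and −0.24. In planar polarity, the formin Daam1 differed by −0.31 and the cilium effector Fuz by 0.25, and 4 of 12 genes (33.3%, against 19.3% of all genes and transcripts) had no overlap, which is a description of a short list.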

How the data were processed

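The authors deposited spot intensity values and 0 or 1 flags from Agilent Feature Extraction 11.5.1.1 (per the file headers), background-subtracted and detrended but not normalized between arrays. The authors also deposited a table of log2 values, for which the sources used here state no steps; it entered no comparison. The submitters' processing notes name limma. Each array had 62976 spots.

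Spots of a probe were averaged as log2 processed signal without flagged outliers (31 of 55681 probes were left out), and the 75th percentile of non-control probes was subtracted on each array. Accessions were named through a RefSeq table of GRCm38.p6 (27497 probes named); the array grid refers to mm9, so coordinates are those of RefSeq only. A probe was kept if every array of 1 or both groups had it well above background (30082 probes), and the brightest kept probe stood for its gene, giving 22823 genes and unnamed transcripts. KO and WT were compared by lmFit and eBayes of limma 3.58.1 (R 4.3.3), two-sided and without covariates, with Benjamini-Hochberg adjustment over all 22823 and a threshold of 0.05. Simulated data with known changes served to test the fit. With 3 arrays a group an exact permutation test cannot go below p = 0.1, the value Sox4 gave, and the number of arrays limits every precision.

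A rule picked members to describe array by array: the 4 measured of each role with the smallest p, and Ctnnb1 and Axin2. It also took any other member without overlap or with a log2 fold change of at least 1. Sfrp2 and Wnt11 fell outside this rule and were also given array by array, for their pattern over the arrays. Of each further pathway list the 2 genes with the smallest p are named; Lrp5, Lrp6, Lgr4 and Lgr5 were added as known receptors, after their values were seen. The members and lists were chosen with earlier results of these data known. Slides were read from the file headers: slide 1 held WT replicate 1 and KO replicate 3, slide 2 held WT replicates 2 and 3 and KO replicate 1, and slide 3 held KO replicate 2. Alternatives were the background correction, quantile normalization, the filter, the probe rule, slide or replicate number as a block, age, and leaving out arrays. The files have no mean signal column, so normexp (offset 50) ran on the median signal and background.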

Additional observations from a re-analysis of the deposited data

How the results depend on the processing

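The count of 0 called Wnt members held under all 15 alternatives, as did the 0 of the further pathway genes; in limma, 0 to 8 members and 0 to 9 pathway genes had an unadjusted p under 0.05, as the count over all genes ran from 1022 to 3674. Members without overlap numbered 2 to 3 where all arrays were used. With 1 array left out they numbered 5 to 13, as all genes rose to between 24.9% and 40.8%, and without KO replicates 1 and 2 they numbered 18, where 49.0% of all genes had none; fewer arrays overlap less by construction. The Sox4 difference held its direction. It was −2.61 with normexp and −4.23 with all kept probes averaged. It missed the threshold with replicate number as a block (−3.56, adjusted p = 0.103) and without KO replicates 1 and 2 (−3.65, adjusted p = 0.14), and ran from −3.66 to −3.49 with 1 array left out. The count of all called genes, 5, was 8 with normexp, 11 with quantile normalization, 2 without a filter, 9 with probes above background on all arrays, 1 with slide as a block, 139 with age as a covariate and 0 without KO replicates 1 and 2 (limma, unadjusted 1022). With 1 array left out it ran from 2 to 303, the highest without WT replicate 1.

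Of the 22 members that the rule picked for description array by array, 17 kept their sign under every alternative run, but sizes moved. With age as a covariate Wnt16 was −0.98 and Sp5 −1.34. With 1 array left out Wnt7b ran from −0.54 to −0.08, Wnt16 from −0.52 to −0.08, Wnt10a from −0.45 to −0.10 and Sp5 from −0.99 to −0.20. With normexp Wnt10b was 0.06. Rspo3 turned to 0.0065 with normexp and 0.035 with age, Rspo1 to −0.011 with age, and Nkd2, Sp5 and Axin2 to 0.20, 0.49 and 0.30 without KO replicates 1 and 2. With 1 array left out Rspo1 ran from −0.0056 to 0.16, Rspo3 from −0.078 to 0.028 and Axin2 from −0.47 to 0.0036. For Rspo4 and Frzb the filter on all arrays left no value. The cause of these turns was not tested.

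Deviations of same-numbered arrays correlated at −0.128, −0.036 and 0.081, which gave no sign of pairing by replicate number. With 3 arrays a group these values cannot show that the samples were unpaired. With the replicate block 0 of 22823 genes were called by limma (2215 at unadjusted p under 0.05) and 0 Wnt members. Second probes of Wnt4, Fzd2, Fzd5 and Fzd7 had the opposite sign to the brighter one, among 8 members with a measured second probe.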
